A study of Brassica napus with 6 samples.

Results

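Cytochrome P450 genes (symbols starting with CYP) and UDP-glycosyltransferase genes (UGT) were followed in roots of oilseed rape, Brassica napus, exposed to cadmium with or without glutathione. A gene was taken as a member when its probe set carried a single gene symbol of the form CYP, 2 or 3 digits and a letter, or UGT and a digit. This left out the plant cyclophilins, which share the letters CYP. There were 70 members, 23 CYP and 47 UGT, among 13350 genes with a single symbol on the array. Other genes of both kinds may lie among the 8730 probe sets without a gene symbol. Counts by family therefore cover the named genes only and do not describe the whole families. Each member was read by 1 probe set.

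Roots of cultivar Nourin No.16 in hydroponics were given 10 µM CdCl2 for 2 days in both groups, so cadmium was common to all 6 samples. The first group (Cd) had cadmium only and the second (Cd plus GSH) also had reduced glutathione, at 100 mM per the labels, a concentration that could not be checked here. There were 3 biological replicates per group, and the plants were 4 weeks old by their growth stage label, although the growth protocol speaks of seedlings of 2 to 3 weeks. Plants without cadmium were not analysed here. Total RNA was labelled through 3' amplification and hybridised to an array made for Arabidopsis thaliana, so each name below is that of the Arabidopsis gene the probes were designed on, and oilseed rape copies of it were not separated. The labels do not say how many plants made up a sample, nor give a batch.

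Cytochrome P450 enzymes are haem proteins that insert oxygen into small molecules. In plants they build hormones, phenylpropanoids, glucosinolates and phytoalexins, and they also oxidise foreign compounds. UDP-glycosyltransferases attach a sugar from a UDP-sugar to an acceptor such as a hormone, a flavonoid or an oxidised toxin, which makes it more soluble and ready for storage in the vacuole. Both kinds of enzyme stand beside the glutathione S-transferases in the removal of reactive and foreign compounds, where oxidation comes first and conjugation to a sugar or to glutathione follows.

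Most of these genes could not be read for a response. Of the 70 members, 64 (91.4%) were constant, with log2 values that spanned at most 0.01 between the highest and the lowest of the 6 arrays, and 6 (8.57%) spanned more. The share that varied was 8.83% over all single-symbol genes, taken with 1 probe set per gene, and 10.7% over all 22746 probe sets, so the members lay near the background. The varying members were CYP71B28, CYP71B29, CYP79A2, UGT73B4, UGT73C7 and UGT78D2. Of the constant members, 1 was exactly equal on all arrays, and 62 members, that one included, ranged by under 1e-06. The remaining pair were UGT85A7 at 6.1e-06 and CYP71B36, the constant member nearest to the limit, at 0.00028. The varying member nearest to it was UGT73B4 at 0.042. Any limit between these values of 0.00028 and 0.042 gives the same 6 members.

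No low-signal filter was applied. Background was judged from 27 array controls that read bacterial transcripts, whose mean log2 signals lay between 5.44 and 6.05. That no such transcripts were added to the samples was assumed and not checked. Of the members, 27 (38.6%) lay above the highest of these, against 37.9% of all single-symbol genes. They were 6 of the 23 CYP genes and 21 of the 47 UGT genes. Oilseed rape transcripts that differ from the Arabidopsis probes give a lower signal, so a value inside the bacterial span does not show that a transcript was absent. Signals of different probe sets do not rank the transcripts.

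**Figure D1:**
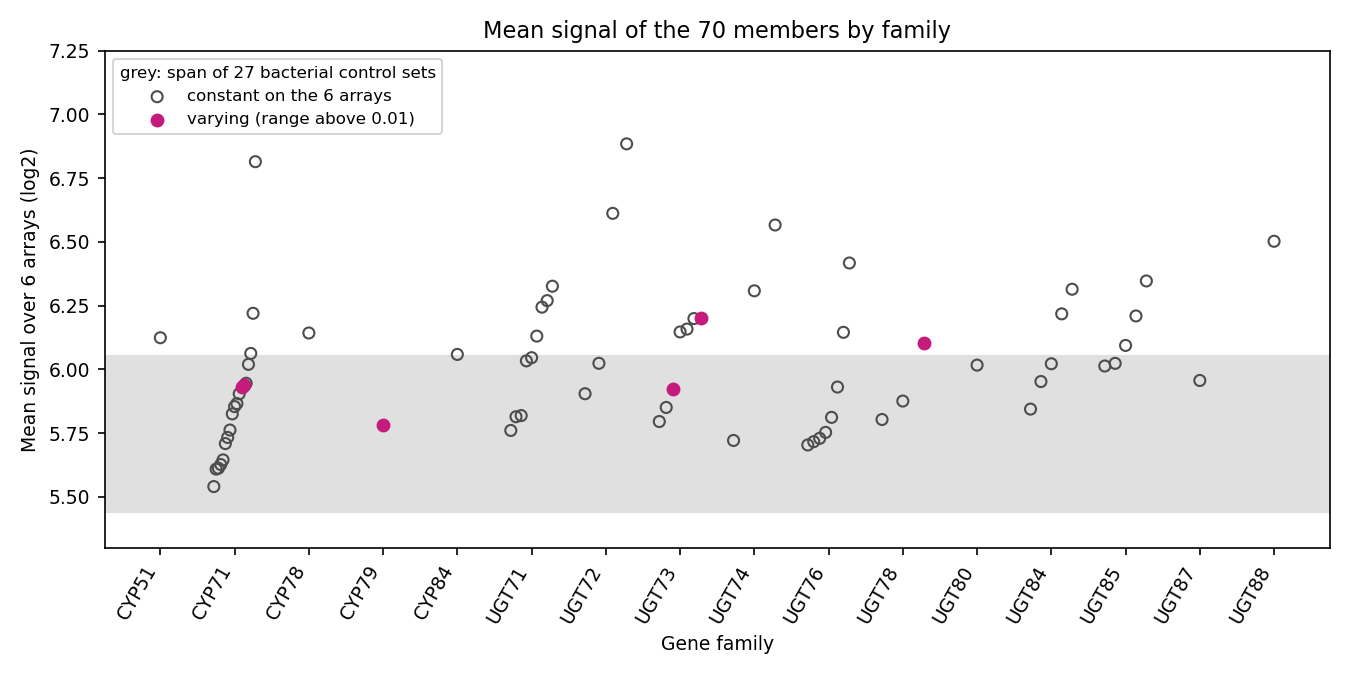
Mean log2 signal over the 6 arrays (vertical axis) of each of the 70 members, grouped by gene family (horizontal axis). Open circles are constant members and filled circles the 6 varying members, and the grey band is the span of the 27 bacterial control sets from 5.44 to 6.05. Of the varying members, 2 (UGT73B4 and UGT78D2) lie above the band and 4 inside it.

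Among the P450 genes named under the rule, the CYP71B subfamily made up 19 of 23 members, of which 2 varied and 3 lay above the bacterial span. CYP71B6, which acts on indole-3-acetonitrile, had the brightest constant P450 probe set, at 6.81. The single members CYP51G2, a relative of the sterol demethylases, CYP78A9, which promotes organ and seed growth in Arabidopsis, and CYP84A4, of the arabidopyrone route, were constant at 6.12, 6.14 and 6.06. CYP71B30P, a pseudogene by its name, was constant at 5.90.

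UGT genes that act on hormones were constant. UGT76C1 and UGT76C2, which glucosylate cytokinins, stood at 5.73 and 6.42, and UGT74F1 and UGT76B1, which act on salicylic acid, at 6.31 and 5.72. UGT71B6 and UGT71C5, which glucosylate abscisic acid, stood at 5.76 and 6.27, and the auxin glucosyltransferases UGT74D1 and UGT84B1 at 5.72 and 5.95. The deposited values of these genes therefore carry no information on the treatment in either direction.

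The same held for most UGT genes of specialised metabolism. UGT72E1, UGT72E2 and UGT72E3, which glucosylate monolignols and their aldehydes, were constant at 5.90, 6.88 and 6.61. UGT74B1, the S-glucosyltransferase of glucosinolate synthesis, was constant at 6.57. UGT84A1, UGT84A3 and UGT84A4, of the group that esterifies hydroxycinnamic acids with glucose, were constant at 6.22, 6.02 and 6.31. Of the flavonoid genes, UGT78D1 and UGT78D3 were constant at 5.80 and 5.88, while UGT78D2 varied. Other bright constant members were UGT88A1 at 6.50, UGT85A7 at 6.35, UGT71B5 at 6.33 and UGT71C4 at 6.24. Families of more than 1 gene without a varying member were UGT71 with 9 genes, UGT76 with 8, UGT84 and UGT85 with 5 each, UGT72 with 4 and UGT74 with 3. UGT80B1, UGT87A2 and UGT88A1, each the single member of its family, were also constant.

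Glutathione in the presence of cadmium was compared with cadmium only, which addresses how glutathione given to the roots alters gene signals under cadmium. Differences are Cd plus GSH minus Cd on the log2 scale and come from a limma fit of the 2428 varying probe sets, with Benjamini-Hochberg adjustment over all of them. No member passed the adjusted threshold of 0.05 (0 of 6), and neither did any other probe set in that fit (0 of 2428, 0.0%). At an unadjusted limma p under 0.05 there was 1 of the 6 members, UGT73C7, which was lower with GSH, against 12.9% of all varying probe sets (312 in number) in either direction and 6.67% in that direction. The groups did not overlap in 1 of 6 members (16.7%), again UGT73C7, against 18.7% of all varying probe sets in either direction and 9.84% with lower values on GSH arrays. Means were lower with GSH in 5 of the 6 members (83.3%), against 50.7% of all varying probe sets. With each array centred on the median of its varying probe sets, CYP71B29 and UGT73B4 turned higher, which left 3 lower. The share of all varying probe sets after that centring was not computed, so these 3 are not set against the 50.7%. With 6 genes the shares of members move in large steps, and the first 2 lie near the background.

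The differences of the members were small. Their median was -0.021, against -0.00072 over all varying probe sets. It was -0.031 for the 3 CYP genes and -0.0098 for the 3 UGT genes. On leaving out 1 array the CYP median ran from -0.053 to -0.0091 and the UGT median from -0.017 to 0.0011, and with median centring the UGT median was 0.0025, so its sign is not settled. The median size without sign was 0.021, against 0.035 over all varying probe sets. Ranges over the 6 arrays ran from 0.042 to 0.136, and 5 of the 6 lay under the median range of all varying probe sets, 0.135. For scale, 3 of the 27 bacterial control sets also varied, with ranges from 0.061 to 0.070, and their groups overlapped. The differences of these 3 control sets were 0.028, -0.0046 and 0.027.

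UGT73C7 glucosylates phenolic acids of the phenylpropanoid route in Arabidopsis. Its log2 signal with cadmium only was 5.941, 5.953 and 5.946 in replicates 1 to 3, and with GSH it was 5.882, 5.921 and 5.894. All 3 GSH arrays lay below all 3 cadmium arrays. The means were 5.947 ± 0.006 (SD, n = 3) and 5.899 ± 0.020 (SD, n = 3). The log2 difference of -0.048 had a 95% interval in limma of -0.092 to -0.004, an unadjusted p of 0.038 and an adjusted p of 0.356. A two-sided exact permutation test gave p = 0.1, the smallest that 3 arrays against 3 allow. Both group means lay inside the span of the bacterial controls, so the difference is one between deposited values and is not read as a fold change of the transcript. Its range over the 6 arrays, 0.072, was close to the largest among the varying bacterial sets, 0.070. The unadjusted p was above 0.05 on leaving out any array except GSH replicate 2. As roots were sampled whole, fewer cells of a type and less RNA per cell cannot be told apart. UGT73D1, the member with the neighbouring Entrez gene number, was constant at 6.16, and the subfamily members UGT73C1 and UGT73C2 were constant at 5.85 and 5.80.

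CYP79A2 makes phenylacetaldoxime from phenylalanine, the first step toward benzylglucosinolate. On all 6 arrays it had the largest difference of the members. Its log2 signal was 5.838, 5.762 and 5.838 with cadmium only and 5.801, 5.762 and 5.702 with GSH. The groups overlapped, since the lowest cadmium array, replicate 2, lay among the GSH arrays. The difference was -0.058 (SE 0.036), and the 95% interval in limma reached from -0.149 to 0.033 (adjusted p = 0.576). Without GSH replicate 3 the difference was -0.031, smaller than that of UGT73C7, -0.046, in the same arrays. Without cadmium replicate 1 or 3 it was also the smaller of these 2. Both means, 5.813 ± 0.044 (SD, n = 3) and 5.755 ± 0.050 (SD, n = 3), lay inside the bacterial span.

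CYP71B28 and CYP71B29 have consecutive Entrez gene numbers, and were the only such neighbours among the members in which both genes varied. Members with consecutive numbers formed 15 runs holding 37 genes, and in 2 of the other runs a single gene varied. CYP71B28 stood at 5.969, 5.948 and 5.950 with cadmium only and at 5.968, 5.925 and 5.880 with GSH. Replicate 1 was alike in both groups, and the GSH arrays spread more widely than the cadmium arrays (SD 0.044 against 0.011). The difference was -0.031 (SE 0.027), and the 95% interval in limma reached from -0.099 to 0.036 (adjusted p = 0.700). It was -0.009 without GSH replicate 3 and -0.053 without GSH replicate 1. CYP71B29 stood at 5.921, 5.992 and 5.895 with cadmium only and at 5.925, 5.944 and 5.921 with GSH. Here the cadmium arrays spread more widely (SD 0.050 against 0.012), through a high replicate 2 and a low replicate 3, and the GSH arrays lay between them. The difference was -0.006 (SE 0.029), and the 95% interval in limma reached from -0.080 to 0.068 (adjusted p = 0.960). The neighbours thus peaked on different arrays. Both genes lay inside the bacterial span in both groups.

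UGT73B4 and UGT78D2 were the varying members above the bacterial span in both groups. UGT73B4 is of a subfamily that acts on flavonols and on foreign compounds such as those formed from trinitrotoluene. It stood at 6.227, 6.191 and 6.197 with cadmium only and at 6.196, 6.185 and 6.204 with GSH. Apart from a higher cadmium replicate 1 the arrays were intermixed. The difference was -0.010 (SE 0.018), and the 95% interval in limma reached from -0.055 to 0.035 (adjusted p = 0.873). Its neighbour by Entrez number, UGT73B5, was constant at 6.15.

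UGT78D2, the flavonoid 3-O-glucosyltransferase of anthocyanin and flavonol synthesis, stood at 6.125, 6.102 and 6.070 with cadmium only and at 6.107, 6.100 and 6.111 with GSH. The GSH arrays lay within the span of the cadmium arrays and close to each other (SD 0.006 against 0.028). The difference was 0.007 (SE 0.020), and the 95% interval in limma reached from -0.043 to 0.058 (adjusted p = 0.923). For the deposited values of this pair the intervals leave out differences as large as 0.1 in either direction. Their signals were not far above the highest bacterial control, 6.052. Means with cadmium only and with GSH were 6.099 and 6.106 for UGT78D2, and 6.205 and 6.195 for UGT73B4. The intervals are therefore not read as limits on fold changes of the transcripts. Whether the unstated probe-set summary narrowed the values, as on the many constant sets, was not tested.

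**Figure D2:**
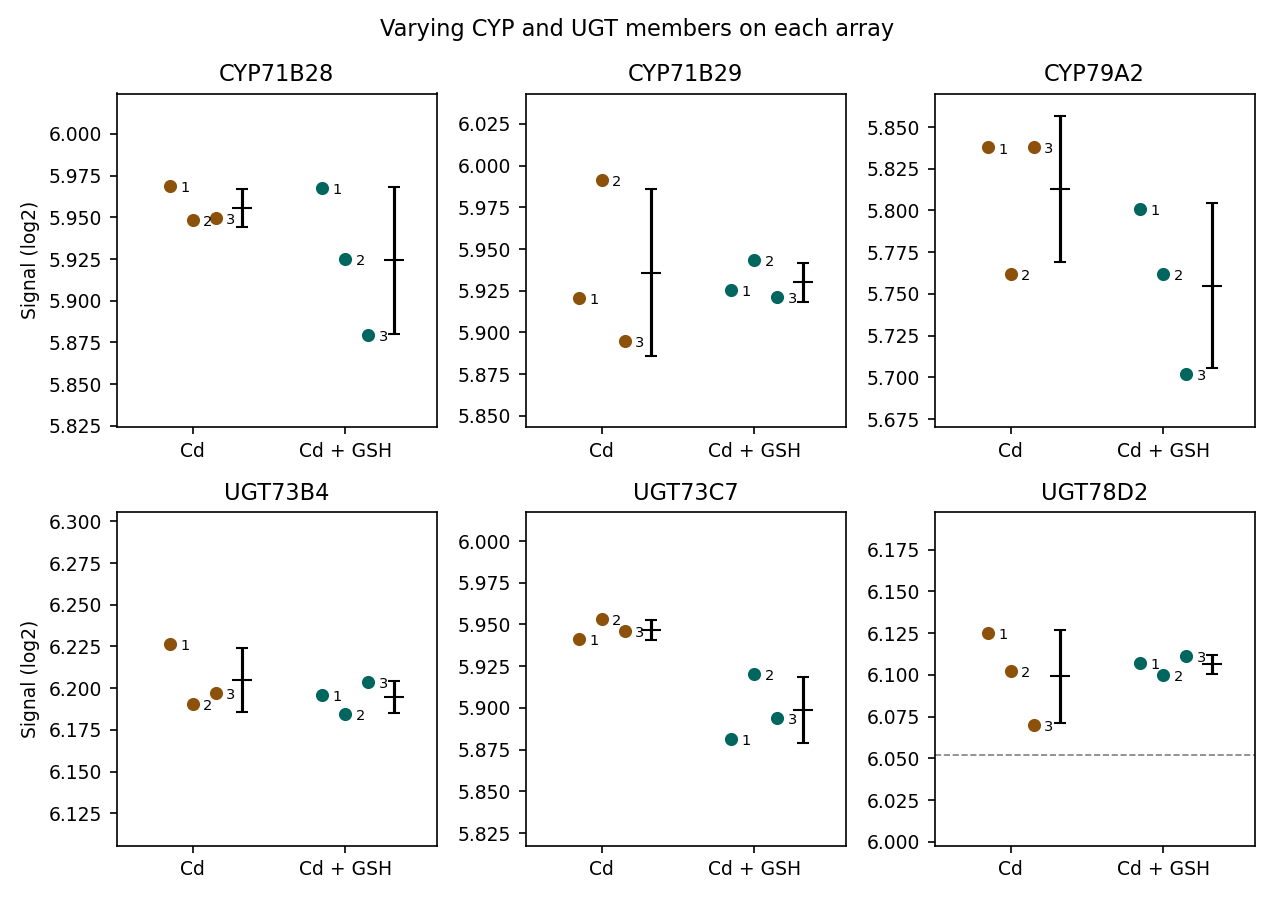
Log2 signal (vertical axis, each panel spanning 0.2) of the 6 varying members on each array, by group (horizontal axis). Points are arrays labelled by replicate number, black bars are mean and SD of 3 arrays, and the dashed line, where it falls in the panel, is the highest bacterial control at 6.05. The groups separate for UGT73C7 alone.

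Another 5 probe sets carried a CYP or UGT symbol together with a second gene and were therefore not members. Of these, 4 were constant, among them one shared by CYP71B19 and CYP71B20. The other is annotated to both UGT73B2 and UGT73B3, flavonoid glucosyltransferases that respond to stress and pathogens in Arabidopsis, and its signal cannot be divided between them. It is singled out here after its values were seen. Its log2 signal was 7.027, 6.504 and 6.210 with cadmium only and 5.893, 6.115 and 6.001 with GSH. All GSH arrays lay below all cadmium arrays, and the cadmium arrays differed widely among themselves. The means were 6.580 ± 0.414 (SD, n = 3) and 6.003 ± 0.111 (SD, n = 3). The difference of -0.577 had a 95% interval in limma of -1.119 to -0.035, an unadjusted p of 0.041 and an adjusted p of 0.362, so it did not pass. The unadjusted p was above 0.05 in 4 of the 6 fits that left out 1 array (up to 0.109), with the replicate block (0.071), with all probe sets (0.073) and with a range above 0.0001 (0.056). The two-sided exact permutation test gave p = 0.1. Over all varying probe sets, groups did not overlap in 18.7%, and in 9.84% with lower values on GSH arrays. An unadjusted limma p under 0.05 was found in 12.9% of them, and in 6.67% in that direction.

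The GSH mean of this shared probe set was not above the highest bacterial control, so the difference is one between deposited values and gives no exact fold change. The cadmium mean stood 0.53 above that control level. Cadmium replicate 1 decided much of the size, and without it the difference was -0.354. Its range of 1.13 exceeded that of 96.6% of varying probe sets, and was over that of each member. UGT73B1, a member of the same subfamily, was constant at 6.20.

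**Figure D3:**
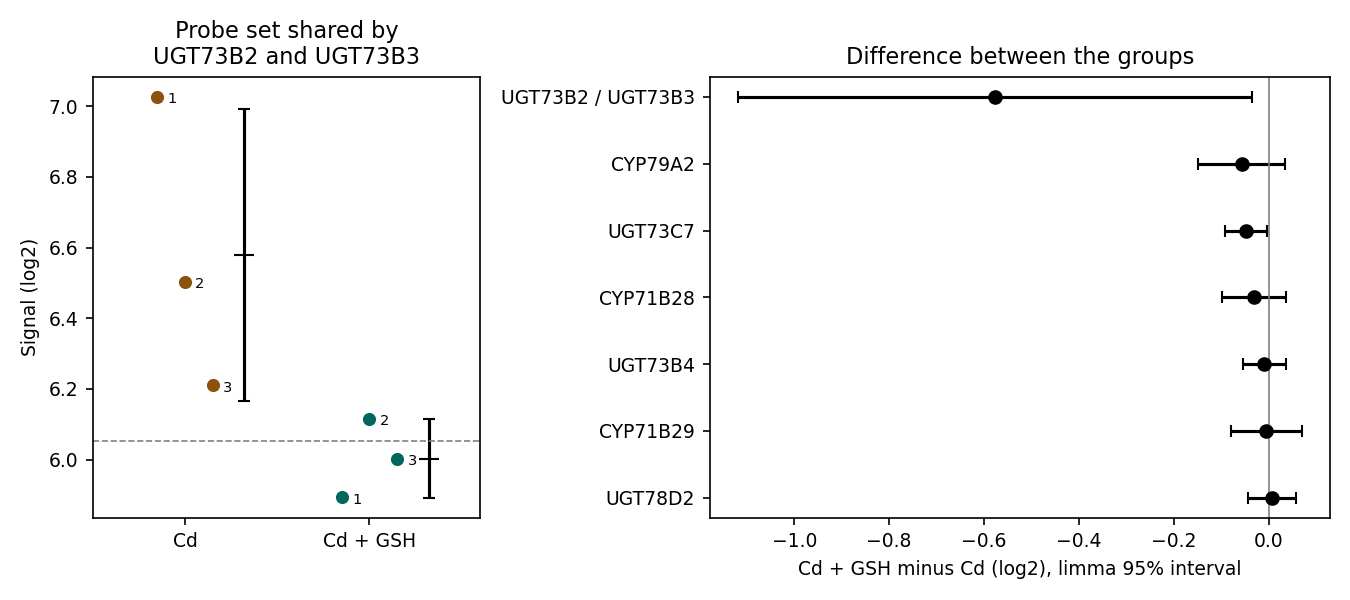
Left, log2 signal (vertical axis) of the probe set shared by UGT73B2 and UGT73B3 on each array by group, with points labelled by replicate, bars for mean and SD of 3 arrays, and the dashed line at the highest bacterial control, 6.05. Right, Cd plus GSH minus Cd on the log2 scale (horizontal axis) with limma 95% intervals, for that probe set and the 6 varying members; the shared set differs by -0.577 and the members by -0.058 to 0.007, as differences between deposited values. The GSH mean of the shared set and both means of 4 members are not above the highest bacterial control.

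Genes that work beside these enzymes were few on the annotated part of the array. Of 9 loci listed as possible electron donors of the P450 enzymes, reductases and cytochrome b5 proteins, 1 was matched, AT3G02280, constant at 6.08. Whether its product serves P450 enzymes was not tested. Of 24 P450 genes usually known by another symbol none was matched, and of 9 such glycosyltransferase genes 2 were matched, IAGLU and GT72B1, constant at 6.35 and 6.12. Of 19 phenylpropanoid genes 2 were matched. HCT, an acyltransferase of lignin synthesis, was constant at 6.91, and CCR2, a cinnamoyl-CoA reductase, differed by 0.016 (SE 0.019). Of 15 glucosinolate and camalexin genes BCAT4 alone was matched and was constant at 5.92. None of the 14 suberin and cutin genes or the 15 ABCC transporters, which carry conjugates into the vacuole, was matched. An unmatched gene may lie among the 8730 probe sets without a gene name here.

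Glutathione S-transferases, which conjugate glutathione to oxidised and reactive compounds, had 13 matched genes, of which 10 were constant. GSTU25 stood at 6.450 ± 0.022 (SD, n = 3) with cadmium only and 6.336 ± 0.096 (SD, n = 3) with GSH. The difference was -0.113 (SE 0.051) without overlap of the groups. Groups did not overlap in 18.7% of all varying probe sets, and in 9.84% with lower values on GSH arrays. GSTU27 differed by 0.053 (SE 0.058) and ATGSTF13 by -0.037 (SE 0.020), with overlapping groups, and ATGSTF13 was not above the bacterial span in either group (5.979 and 5.942). Of the 3 genes 0 passed in limma, with adjusted p from 0.448 to 0.783. An unadjusted limma p under 0.05 was found in 0 of them, against 12.9% of all varying probe sets. Counts over 3 genes are too few to set apart from these shares.

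Of 13 root markers 2 were matched. The root hair expansins EXPA7 and EXPA18 stood above the bacterial span at 6.50 and 6.65, and EXPA18 differed by 0.034 (SE 0.068). Of 15 markers of green tissue 3 were matched (RCA, LHCB4.1 and LHCB4.2), constant between 6.04 and 6.07, and 2 of them, LHCB4.1 and LHCB4.2, also lay above the bacterial span. With so few markers matched, and levels of different probe sets not comparable, the labelled tissue could not be checked. Correlations between arrays, taken across the varying probe sets, which are not independent replicates, ran from 0.951 to 0.979 among the cadmium arrays, from 0.982 to 0.990 among the GSH arrays and from 0.910 to 0.974 between groups.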

How the data were processed

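The authors deposited processed log2 signals, 1 for each array and probe set. The base was not stated and was taken from the span of the values, 5.20 to 11.40. R 2.7.2 is named per the submitters' processing notes. Background correction, normalisation and probe-set summary are not given in the sources used here, and the values were used as they stand. Over the varying probe sets, medians per array ran from 6.26 to 6.29. Of 22810 probe sets, 64 controls were set apart. The platform annotation gave 1 gene symbol for 13513 of the other 22746, several for 503 and none for 8730. Each column is named for its sample. Precision is limited by the small number of arrays.

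The limma package 3.58.1 (R 4.3.3; lmFit, then eBayes; two-sided) was run on the 2428 probe sets ranging by over 0.01. Where more than 1 probe set read a gene, the brightest was used. The members, the lists and the restriction to varying probe sets were chosen with earlier results of these data known. Each varying member is named with its values, and of the constant members the 12 brightest; further constant members are named for their known roles, and 1 shared probe set was added after its values were seen. Lists were matched by locus, or by symbol where neighbouring Entrez numbers lie on the planned chromosome. The fit was tested on simulated data for this comparison, 10 runs of the 2428 varying probe sets with 200 changed. It recovered 88.3% of changes of 0.5 in log2 and 95.7% of changes of 1, and made 9.4 false calls per run. These percentages are averages over probe sets of all spreads. They do not give the recovery for a set as widely spread as the one shared by UGT73B2 and UGT73B3. The largest difference of a varying member, without sign, was 0.058. Recovery of differences of that size or smaller was not tested.

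Alternatives were all probe sets, ranges over 0.0001 or 0.1, quantile normalisation, median centring over the varying probe sets, and a filter on dim probe sets. Others were robust eBayes with an intensity trend, a block for the replicate number, and 1 averaged value per gene. The fit was also run without each array in turn.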

Additional observations from a re-analysis of the deposited data

How the results depend on the processing

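No member passed the adjusted threshold in limma under any of the 15 alternatives run. The count of members with an unadjusted p under 0.05, 1 in the results above, was 4 with all probe sets in the fit, where constant genes with differences of rounding size enter, and 0 with a range above 0.1, with dim probe sets left out (UGT73C7 is not in either fit), with median centring and with the replicate block. Leaving out 1 array gave 0 to 1, and it stayed at 1 only without GSH replicate 2. The count of members whose groups did not overlap, 1 above, was 7 of 70 with all probe sets. It was 0 with a range above 0.1 and 0 with dim probe sets left out. On leaving out 1 array it was 1 to 3, reaching 3 without cadmium replicate 2 and without GSH replicate 1. Groups separate more readily with fewer arrays. The shares over all probe sets in these settings are not given here, so the counts are not read as results about the members. The difference of UGT73C7 ran from -0.059 to -0.036 over its settings, with adjusted p from 0.278 to 0.753, and that of the probe set shared by UGT73B2 and UGT73B3 from -0.762 to -0.354, with adjusted p from 0.210 to 0.789.

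Genes with differences near 0 changed sign. With median centring CYP71B29 was at 0.0066 and UGT73B4 at 0.0025. On leaving out 1 array, CYP71B29 ran from -0.026 to 0.022, above 0 without cadmium replicate 2, UGT73B4 from -0.017 to 0.0011, above 0 without cadmium replicate 1, and UGT78D2 from -0.0075 to 0.020, below 0 without cadmium replicate 3. Over all probe sets in the fit, the count with an adjusted p under 0.05 was 0, but 42 with all probe sets, 5 with a range above 0.1 and 3 with quantile normalisation, and 0 to 13 on leaving out 1 array, 13 without cadmium replicate 3. The unadjusted count of 312 was 1279 with all probe sets, and 208 to 338 on leaving out 1 array. Deviations of same-numbered arrays from their group means had correlations of -0.111, -0.207 and 0.129. Deviations from a mean of 3 arrays are tied to each other, so these values cannot settle whether same-numbered arrays were paired. The replicate block rests on a shared number only. Apart from the members lost by construction, the cause of these changes was not tested.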

Other observations

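Of the symbols that begin with CYP but fall outside the rule, CYP718 carries no subfamily letter and was constant at 6.16. The symbols CYP71 and CYP59, which in Arabidopsis belong to cyclophilins, were at 6.22 and 5.97, with ranges under 0.01.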
